A study of Drosophila melanogaster with 58 samples.

Results

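The genes described here encode the proteins of the fly mitochondrial ribosome. They were taken as every gene whose symbol on the array begins with mRpL, for the large subunit, or mRpS, for the small subunit. A probe set had to carry 1 gene symbol only, and where a gene had more than 1 such probe set the one with the highest mean over all arrays was used. This gave 69 genes, 44 of the large and 25 of the small subunit, of 11982 genes with a single-symbol probe set on the array. The array lists 73 probe sets with a symbol of this form. Of these, 71 carry 1 symbol and 2 carry several.

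RNA came from heads of Oregon R flies, a wild-type laboratory strain of Drosophila melanogaster. All flies were unmated adult males, 10 days old at collection, kept 30 to a vial at 25 degrees C and fed their diet for 7 days. The 58 arrays fall into 15 groups of 4 arrays, apart from moxifloxacin with 2. There are 6 pairs of diets with and without pentylenetetrazole (PTZ), a convulsant that blocks GABA receptors: PTZ alone against normal food, and PTZ added to levetiracetam (an antiepileptic), glucosamine (an amino sugar), mannitol (a sugar alcohol), olmesartan (an angiotensin receptor blocker) or quinapril (an inhibitor of angiotensin-converting enzyme), each against the same compound alone. Outside these pairs are PTZ with oxaprozin (an anti-inflammatory drug), moxifloxacin (an antibacterial fluoroquinolone) and gemfibrozil (a lipid-lowering fibrate). No source used here states a dose. Whether the arrays within a group stand for separate vials of flies is not recorded in the labels. The p-values therefore measure the scatter among these arrays, part of which may be technical, and their precision is limited by the number of arrays.

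The mitochondrial ribosome translates the few proteins encoded by mitochondrial DNA, all of them core subunits of the respiratory chain and the ATP synthase. Its RNAs are mitochondrial, whereas its proteins are encoded in the nucleus, made in the cytosol and imported, so the 2 subunits are assembled from parts of both genomes. Some of its proteins descend from bacterial ribosomal proteins and others are found only in mitochondria. In flies the link to seizures is an old one: mutants of technical knockout (tko), which encodes the small subunit protein S12 under a name that the rule above does not cover, are bang-sensitive, falling into paralysis after a mechanical shock.

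All values are log2 signals, changes are differences of log2 signals ± SE, and levels are group means ± SD of the arrays. A gene is said to have risen, fallen or changed where limma's adjusted p was under 0.05 after Benjamini-Hochberg adjustment over the 18769 probe sets tested in that comparison. Beside the counts of the 69 genes in each comparison stands the share of all 18769 probe sets called in that direction, and in places the share among the 7386 probe sets at least as bright as the dimmest of the 69, since bright probe sets were called more often. Probe sets differ in how strongly they bind, so levels are not compared between genes.

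The 69 probe sets had mean signals between 5.17 (mRpS2) and 10.19 (mRpL33), with a median of 7.32, against 3.75 for all probe sets. Arrays of a group lay close together and groups lay far apart: the median gene had an SD of 0.0746 within groups and an SD of 0.305 between group means, against 0.126 and 0.164 over all probe sets. Over all probe sets, the nearest neighbour of an array by correlation came from the same diet for 58 of 58 arrays. Several features of whole groups move with the diet. The 5′ minus 3′ signal of the control probe sets, which reflects how far labelled RNA reached from its 3′ end, averaged -4.14 with PTZ and levetiracetam and -4.73 with PTZ and oxaprozin, against -6.42 on normal food, and lay between -6.21 and -5.50 in the other groups. The signal of the hybridization control bioB fell into 2 levels, and PTZ with glucosamine had 4 of 4 arrays at the upper level against 0 of 4 for glucosamine alone. A list of 20 measured testis and accessory gland genes, which heads should lack, averaged 6.28 on normal food, 5.12 with moxifloxacin, 5.11 with levetiracetam and 4.00 with gemfibrozil, and between 2.87 and 3.57 in the 11 other groups. Its values are repeated below beside the comparisons they touch. Markers of neurons stood at 7.87 to 9.26 and those of photoreceptors at 11.63 to 12.14, so defining genes of the labelled tissue were bright in every group.

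The level of the mitochondrial ribosomal protein genes differed between diets. The 4 diets with the highest testis and accessory gland signal, namely normal food, moxifloxacin, levetiracetam and gemfibrozil, were among the 5 with the lowest level of these genes. Whether tissue other than head was in those samples, and its part in the order below, was not tested. Averaged over the 44 large subunit genes of each array, the signal was lowest on normal food (6.71 ± 0.00885, n = 4) and with moxifloxacin (6.71 ± 0.0279, n = 2), whose arrays overlapped. It was next in order with levetiracetam (6.82 ± 0.0305, n = 4), glucosamine (6.95 ± 0.0545, n = 4) and gemfibrozil (7.05 ± 0.0373, n = 4), of which glucosamine and gemfibrozil met at 7.00, the highest array of one and the lowest of the other. A middle stretch of 7 groups ran from PTZ with olmesartan (7.14 ± 0.0426, n = 4) to PTZ with quinapril (7.25 ± 0.0635, n = 4), and each of these groups overlapped its neighbour. Above them by their means stood PTZ with levetiracetam (7.37 ± 0.0632, n = 4), whose lowest array of 7.28 lay under the highest of PTZ with quinapril (7.34), PTZ with oxaprozin (7.44 ± 0.0397, n = 4) and PTZ with mannitol (7.44 ± 0.0215, n = 4).

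The 25 small subunit genes gave nearly the same order, with normal food lowest at 6.98 ± 0.0299 (n = 4) and PTZ with mannitol highest at 7.81 ± 0.00661 (n = 4). Every array of PTZ with mannitol, at 7.81 to 7.82, lay above every array of the next group, PTZ with oxaprozin, whose arrays reached 7.68. The 2 subunits did not keep a fixed distance. The small subunit mean stood above the large by 0.163 ± 0.0175 with PTZ and levetiracetam and by 0.172 ± 0.0143 with PTZ and oxaprozin, against 0.270 ± 0.0268 on normal food (SD, n = 4 each). The distance was 0.375 ± 0.0216 with PTZ and mannitol (SD, n = 4) and about the same with moxifloxacin, at 0.372 ± 0.0225 (SD, n = 2). The distance itself depends on which probe sets stand for each subunit, so only its shift between diets is described. The 2 shortest distances were those of the groups with the highest 5′ minus 3′ signal, -4.14 with PTZ and levetiracetam and -4.73 with PTZ and oxaprozin. The part of that signal in the shift was not tested.

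**Figure D1:**
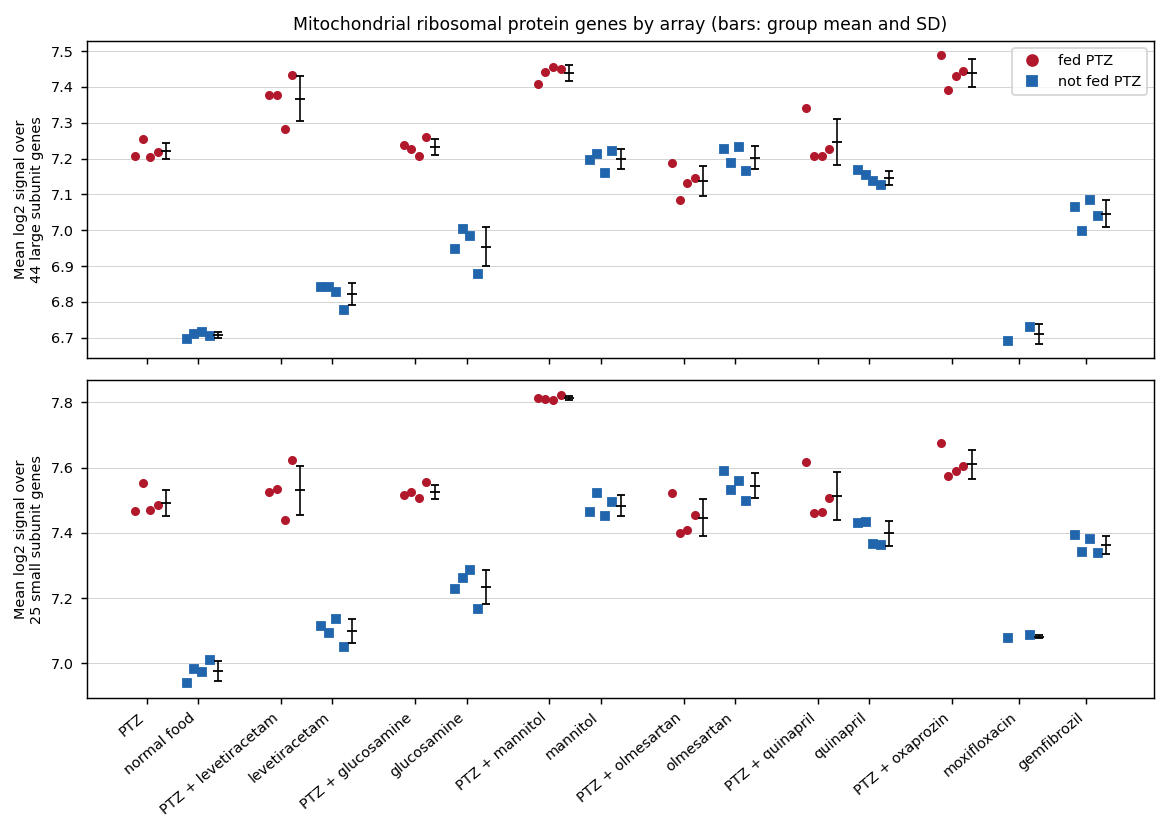
Mean log2 signal of the 44 large subunit genes (top) and 25 small subunit genes (bottom) on each array, with group mean and SD beside the points. Red circles are arrays of flies fed PTZ, blue squares those of flies not fed PTZ. Normal food is the lowest group in both panels, PTZ with mannitol the highest in the lower panel, and the olmesartan pair is the one in which the arrays fed PTZ do not lie above those without.

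Single genes followed the same poles. The group with the lowest mean was moxifloxacin for 31 genes and normal food for 23, against 13.3% of all probe sets for either diet. The group with the highest mean was PTZ with mannitol for 34 genes, PTZ with levetiracetam for 18 and PTZ with oxaprozin for 15, against 11.9%, 12.2% and 6.56% of all probe sets. Levetiracetam alone was the highest group for the other 2 genes, so 67 of the 69 had their highest mean in flies fed PTZ together with a drug.

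PTZ on normal food was the first of the 6 comparisons. Of the 69 genes, 65 rose and 0 fell, against 23.9% of all probe sets that rose and 26.4% that fell, and 45.5% of the bright probe sets that rose. The median change was 0.48 in the large subunit and 0.57 in the small. The 4 arrays with PTZ lay wholly above the 4 on normal food for 62 of the 69 genes, against 21.6% of all probe sets. After a second quantile normalization 62 genes rose and 2 fell, against 25.4% and 25.2% of all probe sets, with medians of 0.39 in the large and 0.48 in the small subunit. The 5′ minus 3′ control signal was -5.67 with PTZ and -6.42 on normal food. With that signal as a covariate, 48 genes rose and 0 fell, against 17.4% and 20.6% of all probe sets. The medians in that fit were 0.32 in the large and 0.43 in the small subunit. Here and wherever this covariate is used, its slope came from the scatter of arrays within groups and was carried over the gap between groups. Such a fit cannot separate the signal from the diet. In bulk heads, more cells of a type and more RNA per cell cannot be told apart. The testis and accessory gland list averaged 3.47 with PTZ and 6.28 on normal food, and 15 of its 20 genes with PTZ, against 3 of 20 on normal food, lay below the median probe set. Its part in the result was not tested.

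The greatest rise was that of mRpL35, a large subunit protein with a bacterial counterpart. It had 7.36, 7.32, 7.22 and 7.08 with PTZ, against 5.94, 5.85, 5.95 and 5.97 on normal food. Each array with PTZ was more than 1 log2 unit above each on normal food, and the change was 1.31 ± 0.0525 (limma adjusted p = 5.2e-27). mRpS2, which in bacteria sits where the head and body of the small subunit meet, had 5.27, 5.40, 5.12 and 5.31 with PTZ, against 3.92, 4.52, 4.22 and 4.12 on normal food. The groups did not overlap, although the arrays on normal food spread more widely than those of most of the genes, and the change was 1.08 ± 0.121 (adjusted p = 6.22e-11). mRpL51, a protein of the large subunit found only in mitochondria, had 7.82, 7.85, 7.83 and 7.68 with PTZ, against 6.91, 6.66, 6.52 and 6.82 on normal food, a change of 1.06 ± 0.0616 (adjusted p = 1.38e-20).

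In the small subunit, mRpS14 had 8.16, 8.27, 8.12 and 8.17 with PTZ, against 7.24, 7.39, 7.40 and 7.46 on normal food, with no overlap and a change of 0.81 ± 0.0492 (limma adjusted p = 8.67e-20). The 4 genes that did not pass the test were mRpL45, mRpS5, mRpS9 and mRpS35. mRpL45, whose mammalian protein sits at the mouth of the exit tunnel and tethers the ribosome to the inner membrane, changed by 0.02. mRpS9 had 7.72, 7.76, 7.57 and 7.76 with PTZ, against 7.85, 7.75, 7.85 and 7.76 on normal food. The arrays of mRpS9 overlapped, and its change was -0.10 ± 0.0495 (adjusted p = 0.0779).

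Normal food was itself a low pole. Set against the mean of the 7 groups fed a compound without PTZ, 56 genes rose with PTZ and 2 fell, against 19.1% and 19.8% of all probe sets, with a median change of 0.20 in the large and 0.19 in the small subunit. Most of the genes were therefore also higher with PTZ than with the average compound, though by less than against normal food. Single compounds reached the level with PTZ: the large subunit mean was 7.22 with PTZ and 7.20 with olmesartan and with mannitol. The small subunit mean was 7.49 with PTZ, 7.54 with olmesartan and 7.48 with mannitol. This baseline includes moxifloxacin, levetiracetam and gemfibrozil, where the testis and accessory gland list averaged 5.12, 5.11 and 4.00, against 3.47 with PTZ. Its part was not tested.

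With levetiracetam in the food, PTZ moved the genes further apart from each other. There were 52 that rose and 9 that fell, against 22.7% and 27.9% of all probe sets, and 41.8% of the bright probe sets that rose. The large subunit had a median change of 0.51 and the small subunit 0.25. The testis and accessory gland list averaged 2.87 with PTZ and levetiracetam and 5.11 with levetiracetam alone. Its part in the result was not tested.

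mRpL48, a large subunit protein without a bacterial counterpart, showed the greatest change of any of the 69 genes in any PTZ comparison. It had 6.76, 6.66, 6.70 and 6.84 with PTZ and levetiracetam, against 5.21, 4.99, 5.0 and 5.13 with levetiracetam alone, a change of 1.66 ± 0.0841 (limma adjusted p = 5.79e-23). The next highest group for mRpL48, PTZ with oxaprozin, had 6.53 ± 0.148 (SD, n = 4), and its highest array, 6.70, overlapped those of PTZ with levetiracetam. mRpS2 rose by 1.51, and mRpS6 and mRpS34 by 1.42 each. mRpS34 is a mitochondria-specific protein whose human form, when mutated, causes a failure of the respiratory chain. mRpL12, part of the stalk that recruits translation factors, rose by 1.14. The greatest fall was that of mRpL20, an early-assembling protein in bacteria, with 7.06, 7.12, 7.01 and 7.16 with PTZ and levetiracetam, against 7.42, 7.35, 7.43 and 7.25 with levetiracetam alone. Its groups did not overlap and the change was -0.28 ± 0.0525 (adjusted p = 1.12e-05).

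This comparison had the widest gap in the 5′ minus 3′ control signal, -4.14 with PTZ and levetiracetam against -5.82 with levetiracetam alone. With that signal as a covariate, 20 genes rose and 9 fell, against 9.88% and 15.2% of all probe sets, and the medians were 0.13 in the large and -0.04 in the small subunit. The SD of the signal within groups was 0.225 with PTZ and levetiracetam and 0.108 with levetiracetam alone. The slope was thus carried far beyond the scatter it came from. mRpL48, mRpL42 and mRpL20 kept their direction and stayed called in that fit.

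With glucosamine in the food, 49 genes rose with PTZ and 2 fell, against 15.2% and 15.9% of all probe sets and 30.7% of the bright probe sets that rose. The median change was 0.25 in the large and 0.31 in the small subunit. The testis and accessory gland list was low on both diets, at 3.21 with PTZ and glucosamine and 2.87 with glucosamine alone. Of its 20 genes 12 rose and 0 fell, and its part in the result was not tested. The 5′ minus 3′ signal was -5.58 with PTZ and glucosamine and -5.71 with glucosamine alone. mRpL51 had 7.89, 7.82, 7.77 and 7.82 with PTZ and glucosamine, against 7.15, 7.14, 7.00 and 6.94 with glucosamine alone. All arrays with PTZ were higher, and the change of 0.77 ± 0.0616 (limma adjusted p = 9.45e-15) was the greatest rise. The 2 that fell were mRpS22 and mRpS29. mRpS22, a mitochondria-specific protein, had 6.65, 6.66, 6.54 and 6.62 with PTZ and glucosamine, against 6.81, 6.92, 6.91 and 6.74 with glucosamine alone, a change of -0.23 ± 0.0642 (adjusted p = 0.00402). mRpS29, a GTP-binding protein also known in mammals as death-associated protein 3 (DAP3), changed by -0.17. The bioB level differed between all arrays of this pair. With the bioB level as a block, 45 rose and 0 fell, against 11.2% of all probe sets that rose, and the adjusted p of mRpS22 was 0.0754. In that fit the effect of the level came only from the olmesartan and quinapril groups, each with 1 of 4 arrays at the upper level. Every other group lay at a single level, so the fit cannot by itself separate level and diet in this pair.

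With mannitol in the food, 43 genes rose with PTZ and 13 fell, against 21.1% and 22% of all probe sets and 35.4% of the bright probe sets that rose. The arrays with PTZ lay wholly above those without for 42 genes and wholly below for 14, against 20.2% and 21.2% of all probe sets. The medians were 0.29 in the large and 0.31 in the small subunit, and the 5′ minus 3′ signal hardly differed, at -5.55 with PTZ and mannitol and -5.50 with mannitol alone. mRpS14 had 8.71, 8.75, 8.70 and 8.78 with PTZ and mannitol, against 7.79, 7.75, 7.72 and 7.91 with mannitol alone, a rise of 0.94 ± 0.0492 (limma adjusted p = 2.59e-22). mRpS30 had 5.84, 5.64, 5.70 and 5.82 with PTZ and mannitol, against 6.32, 6.42, 6.35 and 6.34 with mannitol alone. The groups of mRpS30 were apart, and it fell by 0.61 ± 0.0999 (adjusted p = 9.5e-07). In mammals the protein that carries this name sits in the large subunit. Pan-neuronal markers averaged 7.87 with PTZ and mannitol and 8.77 with mannitol alone, and 8 of the 8 measured fell. Of 9 glial markers 7 fell and 0 rose, and of 9 fat body markers 7 fell and 1 rose. Of 7 haemocyte markers 5 fell and 0 rose, and of 6 photoreceptor markers 3 fell and 0 rose. Of 8 muscle markers 3 fell and 3 rose. Of 20 testis and accessory gland genes 13 rose and 1 fell, with averages of 3.57 with PTZ and mannitol and 3.02 with mannitol alone. The part of these lists in the result was not tested. The pan-neuronal average also stood lower with PTZ in the other 5 pairs. On normal food 7 of 8 fell and 1 rose (8.50 with PTZ and 9.01 on normal food), and with levetiracetam 5 fell and 2 rose (8.94 with PTZ and 9.10 without). With glucosamine 7 fell (8.89 with PTZ and 9.26 without), with olmesartan 5 fell and 1 rose (8.26 and 8.51), and with quinapril 6 fell (8.67 and 9.22). Of the bright probe sets 38.2% fell with mannitol, 35.8% on normal food and 41.2% with levetiracetam. The shares that fell were 29.3% with glucosamine, 30.2% with olmesartan and 33.8% with quinapril.

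Olmesartan was the exception among the 6 backgrounds. With it in the food, 6 genes rose with PTZ and 20 fell, against 13.3% and 15.2% of all probe sets, and 23.7% and 30.2% of the bright probe sets. The rises were thus below both shares, and the falls above the share of all probe sets but near that of the bright ones. The median change was -0.06 in the large and -0.11 in the small subunit. Olmesartan alone already had a high level of 7.20 ± 0.0313 in the large subunit, and 7.14 ± 0.0426 was measured with PTZ and olmesartan (SD, n = 4 each), with overlapping arrays. In this pair 8 of 8 muscle markers fell, averaging 8.11 with PTZ and olmesartan and 8.65 with olmesartan alone. Of 6 photoreceptor markers 5 fell, and of 8 pan-neuronal markers 5 fell and 1 rose. Glial markers went the other way, with 5 of 9 that rose and 2 that fell. Of 9 fat body markers 5 fell and 2 rose, and of 7 haemocyte markers 4 fell and 1 rose. The shares of probe sets called are those given above for this background. Their part in the result was not tested. mRpL51, which rose in the other 5 backgrounds, had 7.90, 7.73, 7.79 and 7.82 with PTZ and olmesartan, against 7.80, 7.75, 7.86 and 7.70 with olmesartan alone. The arrays of mRpL51 were intermingled, and its change was 0.04 ± 0.0616 (limma adjusted p = 0.735).

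The greatest rise in this background was that of mRpS5. The gene, whose bacterial counterpart lines the path by which messenger RNA enters the small subunit, had 10.38, 10.33, 10.29 and 10.31 with PTZ and olmesartan, against 9.94, 9.97, 9.87 and 9.95 with olmesartan alone, a rise of 0.39 ± 0.0338 (limma adjusted p = 8.94e-14). The greatest fall was that of mRpL3, followed by mRpS23 and mRpL41 at -0.34 each. mRpL3, whose bacterial counterpart reaches towards the peptidyl transferase centre, had 4.84, 4.85, 4.84 and 4.93 with PTZ and olmesartan, against 5.30, 5.21, 5.44 and 5.35 with olmesartan alone. The arrays of mRpL3 did not overlap, and it fell by 0.46 ± 0.1 (adjusted p = 0.000253). After a second quantile normalization 8 genes rose and 15 fell in this background, against 14.7% and 13.7% of all probe sets, and without 1 array at a time between 14 and 24 fell.

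With quinapril in the food, 36 genes rose with PTZ and 10 fell, against 20.3% and 20.2% of all probe sets and 32.3% of the bright probe sets that rose. The medians were 0.12 in the large and 0.16 in the small subunit, and the testis and accessory gland list stood at 3.01 with PTZ and quinapril and 2.98 with quinapril alone. mRpL33, a small protein of the large subunit with a bacterial counterpart, had 10.35, 10.38, 10.37 and 10.35 with PTZ and quinapril, against 9.68, 9.66, 9.70 and 9.68 with quinapril alone. The 2 groups were each tight and wholly apart, and the rise was 0.69 ± 0.0287 (limma adjusted p = 1.4e-25). mRpL3 again had the greatest fall, with 5.32, 4.79, 4.95 and 5.18 with PTZ and quinapril, against 5.84, 5.78, 5.55 and 5.65 with quinapril alone, a change of -0.64 ± 0.1 (adjusted p = 5.13e-07).

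**Figure D2:**
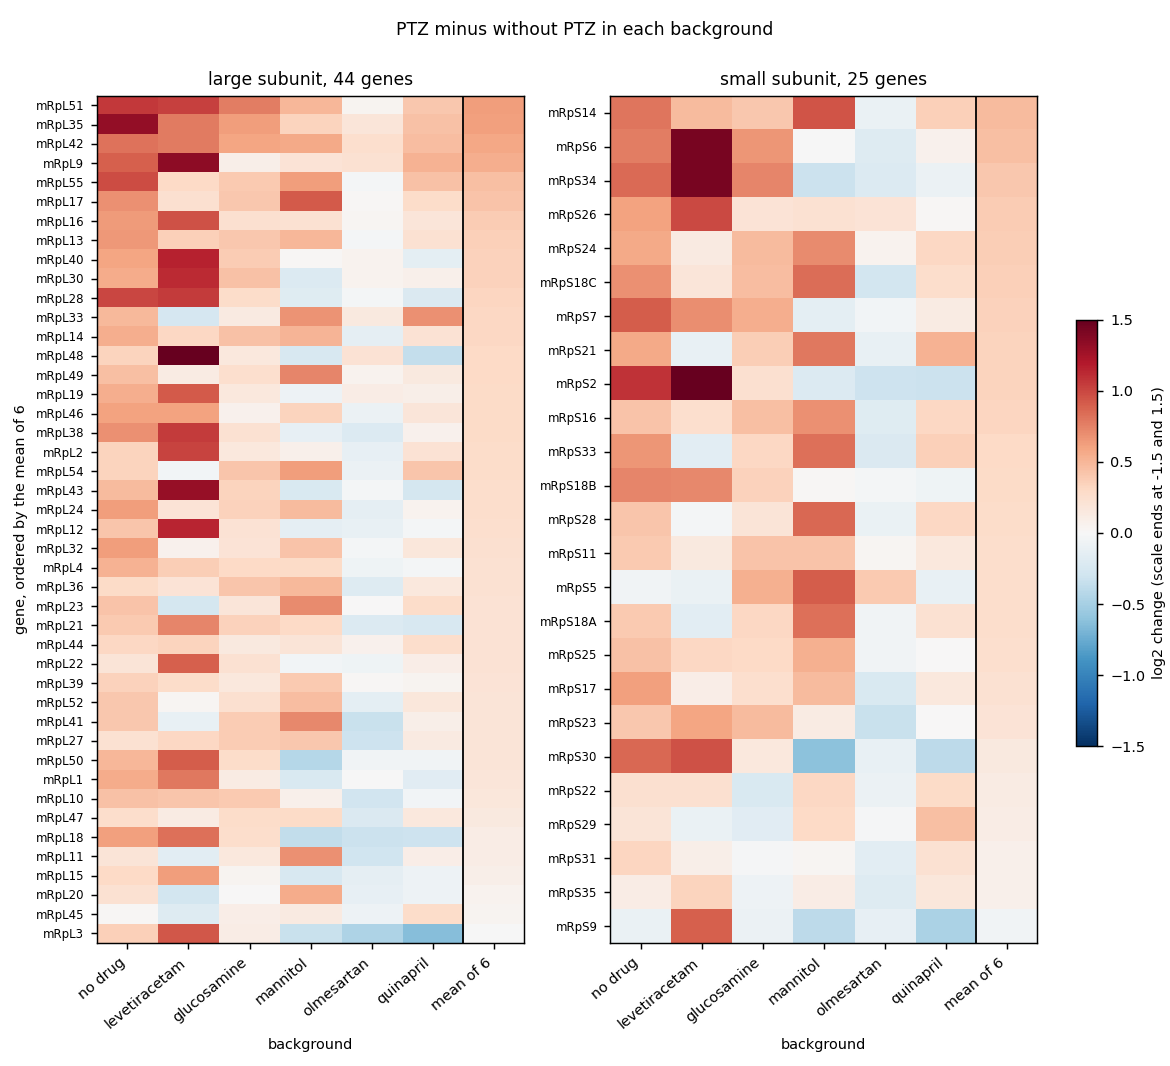
Log2 change with PTZ of each gene (rows) in each of 6 backgrounds (columns), with the mean of the 6 at the right of each panel. Red is higher with PTZ and blue lower. The columns for no drug and glucosamine are almost all red, the olmesartan column is pale, and several genes that are deep red with levetiracetam, such as mRpL48 and mRpS34, are blue with mannitol.

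Taking each background as 1 unit shows which genes moved the same way whatever else was in the food. The mean over the 6 changes was above 0 for 67 of 69 genes, against 48.8% of all probe sets, and its median was 0.26 in the large and 0.27 in the small subunit. In all 6 backgrounds 12 genes had a positive change, against 5.56% of all probe sets, and in at least 5 backgrounds 34 did, against 17.4%. Another 17 genes were positive in every background but olmesartan, against 3.27% of all probe sets. Each of the 69 rose in at least 1 background, whereas 46.6% of all probe sets and 21.5% of the bright ones rose in none. There were 39 genes that rose in one background and fell in another, 56.5% of the genes, against 55.9% of the bright probe sets.

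mRpL42, a mitochondria-specific protein of the large subunit, was the 1 gene that passed the test over the 6 backgrounds, where 1.18% of all probe sets rose and 1.77% fell; 28 of the 69 had an unadjusted p under 0.05, against 18.4% of all probe sets and 33.3% of the bright ones. With PTZ on normal food it had 7.98, 8.10, 8.04 and 8.08, against 7.23, 7.32, 7.27 and 7.10 without PTZ. With levetiracetam it had 7.98, 7.98, 7.84 and 7.96 with PTZ, against 7.25, 7.19, 7.12 and 7.07 without PTZ. With glucosamine it had 7.83, 7.96, 7.86 and 7.88 with PTZ, against 7.19, 7.38, 7.38 and 7.23 without PTZ. In all 3 of these pairs the arrays with PTZ lay well above those without.

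The pairs with mannitol, olmesartan and quinapril had higher levels without PTZ and smaller gaps. mRpL42 had 8.31, 8.32, 8.40 and 8.43 with PTZ and mannitol, against 7.79, 7.80, 7.78 and 7.83 with mannitol alone. It had 8.03, 8.10, 8.04 and 8.13 with PTZ and olmesartan, against 7.82, 7.78, 7.87 and 7.80 with olmesartan alone. It had 8.04, 7.98, 8.13 and 7.96 with PTZ and quinapril, against 7.51, 7.69, 7.50 and 7.59 with quinapril alone. In none of the 6 pairs did the arrays overlap. The changes were 0.82 on normal food, 0.78 with levetiracetam, 0.59 with glucosamine, 0.57 with mannitol, 0.26 with olmesartan and 0.46 with quinapril, each called, and their mean was 0.58 ± 0.0826 (limma adjusted p = 0.0173). The call was lost with a variance trend and robust prior (adjusted p = 0.177) and when glucosamine, mannitol or quinapril was left out (adjusted p = 0.0598, 0.0514 and 0.0527), with a mean change of 0.58 to 0.60 in each of these.

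**Figure D3:**
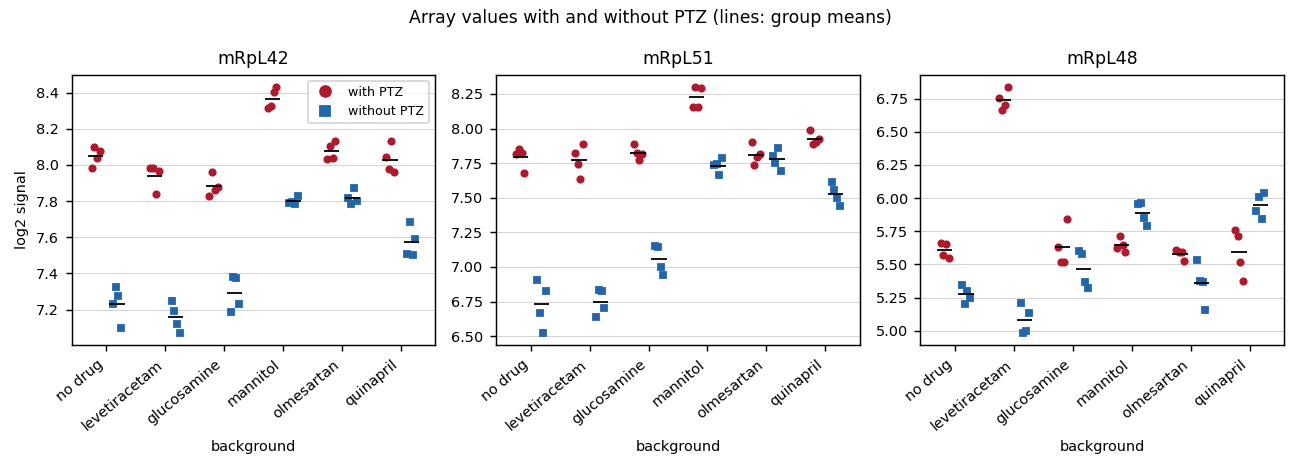
Log2 signal of mRpL42, mRpL51 and mRpL48 on each array by background, with PTZ (red circles) and without PTZ (blue squares); lines are group means. mRpL42 is higher with PTZ in every background, mRpL51 in all but olmesartan, and mRpL48 stands out with PTZ and levetiracetam and is lower with PTZ in the mannitol and quinapril backgrounds.

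The other genes with the largest mean changes did not pass the test over backgrounds. Those of the large subunit were mRpL51 (0.63 ± 0.138, limma adjusted p = 0.058), mRpL35 (0.61 ± 0.14, adjusted p = 0.0648) and mRpL9 (0.55 ± 0.167, adjusted p = 0.132). mRpL35 and mRpL42 were the 2 genes that rose in each of the 6 backgrounds tested singly, which is 2.9% of the genes, against 1.63% of all probe sets and 3.86% of the bright ones. In the small subunit the largest were mRpS14 (0.48 ± 0.129, adjusted p = 0.0997), mRpS6 (0.45 ± 0.206, adjusted p = 0.296), mRpS34 (0.40 ± 0.236, adjusted p = 0.434) and mRpS26 (0.38 ± 0.125, adjusted p = 0.164). mRpS14 rose in 5 backgrounds, whereas mRpS6 and mRpS34 rose in 3 and had their greatest change with levetiracetam, at 1.42 each. At the low end, mRpL3 had a mean of -0.01 ± 0.2, mRpL45 of 0.04 ± 0.0711, mRpS35 of 0.08 ± 0.0764 and mRpS9 of -0.05 ± 0.167. Without the olmesartan background 6 genes passed, namely mRpL13, mRpL14, mRpL42, mRpL51, mRpS14 and mRpS16, against 1.07% of all probe sets that rose.

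The PTZ change depended on the background for nearly all of these genes. An F test over the 5 differences from the change on normal food called 68 of 69, against 68.1% of all probe sets and 98.3% of the bright ones, so the share was that of any probe set of this brightness. The gene not called was mRpL44 (limma adjusted p = 0.0606), whose changes spanned 0.267. Compared with the change on normal food, the change with olmesartan was lower for 65 genes and higher for 1, against 23.5% and 23.1% of all probe sets, with a median difference of -0.55. With quinapril it was lower for 50 and higher for 3 (21% and 21.3%), with glucosamine lower for 36 and higher for 1 (19.3% and 17.1%), and with mannitol lower for 37 and higher for 15 (22.1% and 21.9%). With levetiracetam it was lower for 29 and higher for 20 (19% and 16.7%). These differences all use the same change on normal food, and so are not independent of each other.

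The single gene that responded more with olmesartan than on normal food was mRpS5, by 0.44 ± 0.0478 (limma adjusted p = 3.52e-11). Its changes ran from -0.12 with quinapril to 0.91 with mannitol, and it was one of the 4 genes not called on normal food. The widest span over the 6 backgrounds was that of mRpL48, 2.02, followed by mRpS2 (1.83), mRpS34 (1.74) and mRpS6 (1.62).

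The sizes of the changes in the levetiracetam and mannitol backgrounds, which share no arrays, ran against each other. Across the 69 genes the changes with PTZ in these 2 backgrounds had r = -0.738, against -0.0519 across all probe sets and 0.00316 across the bright ones. It was the most negative r among all pairs of the 6 backgrounds. The next was -0.493 with levetiracetam and quinapril, and the highest was 0.672 with mannitol and quinapril. The levetiracetam pair also had the widest gap in the 5′ minus 3′ signal, whose part in this r was not tested. Such an r describes the genes within these arrays, since genes are not independent replicates and all share the same libraries. Most genes did not respond oppositely: 27 rose in both backgrounds, against 6.76% of all and 14.6% of the bright probe sets. In opposite directions 22 genes were called, which is 31.9% of them, against 16.4% of all and 32% of the bright probe sets. mRpL48, which rose by 1.66 with levetiracetam, had 5.62, 5.72, 5.64 and 5.59 with PTZ and mannitol, against 5.96, 5.96, 5.85 and 5.79 with mannitol alone. The arrays of mRpL48 were lower with PTZ without overlap, a change of -0.25 ± 0.0841 (limma adjusted p = 0.0144), although a second quantile normalization gave an adjusted p of 0.0662. mRpS30 rose by 0.95 with levetiracetam and fell by 0.61 with mannitol, mRpL43 rose by 1.3 and fell by 0.23, and mRpS9 rose by 0.89 and fell by 0.40. In the other direction, mRpL33 fell by 0.25 with levetiracetam and rose by 0.68 with mannitol.

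**Figure D4:**
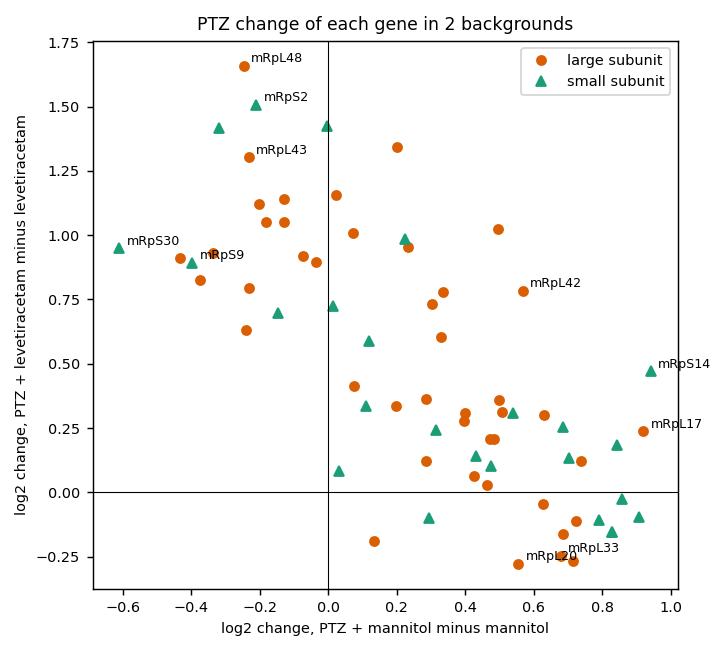
Log2 change with PTZ of each of the 69 genes in the mannitol background (x axis) and in the levetiracetam background (y axis), with large subunit genes as circles and small subunit genes as triangles. The points run from upper left, where mRpL48, mRpS2 and mRpS30 lie, to lower right, where mRpL33 and mRpL20 lie.

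What the 2 ends of this range share was looked at with splits chosen after their values were seen. The 35 genes at least as long as the median gene, 909 bases from start to end in the annotation, had a median change of 0.63 with levetiracetam and 0.11 with mannitol. The 34 shorter genes had 0.23 with levetiracetam and 0.55 with mannitol. The 35 brighter probe sets had 0.21 with levetiracetam and 0.54 with mannitol, and the 34 dimmer ones 0.86 and 0.05. Longer genes had dimmer probe sets, with a median signal of 6.66 against 7.61 for the shorter ones, so length and brightness cannot be told apart here. Quinapril ran the same way as mannitol, with 0.07 in the longer and 0.19 in the shorter genes, and 0.21 in the brighter and 0.05 in the dimmer ones. So did glucosamine, with 0.23 in the longer and 0.37 in the shorter genes, and 0.38 in the brighter and 0.22 in the dimmer ones. On normal food the longer genes had 0.39 and the shorter 0.55, but the brighter ones 0.46 and the dimmer 0.52. With olmesartan the longer genes had -0.07 and the shorter -0.10, and the brighter -0.08 and the dimmer -0.09. Proteins found only in mitochondria did not stand apart from those with bacterial counterparts. The 26 genes of the first kind had a median of 0.26 over the 6 backgrounds and the 43 of the second 0.26, and with levetiracetam they had 0.33 and 0.36. The genes lie on all the major chromosome arms, 12 on 2L, 10 on 2R, 17 on 3L, 19 on 3R and 11 on X, with median mean changes of 0.23 to 0.29 per arm.

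Each compound given without PTZ was also set against normal food. These 7 comparisons and that of PTZ share the 4 arrays on normal food, so a common direction among them is not independent evidence. With olmesartan 62 genes rose and 0 fell, against 25.7% and 24.4% of all probe sets. With mannitol 60 rose and 2 fell (22.9% and 25.4%), with gemfibrozil 58 rose and 1 fell (25.3% and 20.8%), with quinapril 56 rose and 3 fell (25.1% and 24%) and with glucosamine 51 rose and 2 fell (22.4% and 18.9%). Levetiracetam had a smaller count, with 33 that rose and 5 that fell (21% and 17.3%), and a second quantile normalization gave 27 and 10. Moxifloxacin was divided, with 24 that rose and 20 that fell (17.6% and 19.9%). The median changes over the 69 genes were 0.50 with olmesartan, 0.47 with mannitol, 0.42 with quinapril, 0.34 with gemfibrozil, 0.22 with glucosamine, 0.14 with levetiracetam and 0.03 with moxifloxacin. The testis and accessory gland list was below its level on normal food, 6.28, with each of the 7 compounds, at 2.87 with glucosamine to 5.12 with moxifloxacin. All arrays with mannitol, gemfibrozil and moxifloxacin were at the upper bioB level, against 0 of those on normal food. With the bioB level as a block, 23 rose and 11 fell with moxifloxacin (14.5% and 13.9% of all probe sets). In that fit 58 rose and 1 fell with mannitol (20.3% and 19.6%), and 54 and 1 with gemfibrozil (21.8% and 14.9%). Here too the effect of the level was estimated only from the olmesartan and quinapril groups, the only ones with arrays at both levels.

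Among single genes, mRpL35 led the rises with 2 of the compounds. It had 7.12, 7.10, 7.18 and 7.06 with olmesartan, against 5.94, 5.85, 5.95 and 5.97 on normal food, a rise of 1.19 ± 0.0525 (limma adjusted p = 3.01e-25). With moxifloxacin it had 6.73 and 6.65, a rise of 0.76 ± 0.0643 (adjusted p = 2.42e-14), although against the mean of the other 6 compounds its change was -0.051 (adjusted p = 0.507). mRpS2 led with mannitol, with 5.30, 5.95, 5.46 and 5.56, against 3.92, 4.52, 4.22 and 4.12 on normal food, a rise of 1.38 ± 0.121 (adjusted p = 3.52e-14). It also led with quinapril (1.32 ± 0.121) and glucosamine (0.84 ± 0.121), while mRpS30 led with gemfibrozil (0.91 ± 0.0999). Against the mean of the other 6 compounds, neither mRpS2 with glucosamine (0.04, adjusted p = 0.805) nor mRpS30 with gemfibrozil (0.16, adjusted p = 0.118) passed the test, and mRpS2 with glucosamine also lost its call with the 5′ minus 3′ signal as a covariate (adjusted p = 0.0605). mRpL28, with a bacterial counterpart, led with levetiracetam, at 7.40, 7.42, 7.27 and 7.52, against 7.10, 6.95, 6.84 and 6.82 on normal food, a rise of 0.48 ± 0.0594 (adjusted p = 3.66e-09). Against the mean of the other 6 compounds its change was -0.28.

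The greatest falls against normal food were small outside moxifloxacin. They were those of mRpS5 with levetiracetam (-0.33 ± 0.0338) and glucosamine (-0.29 ± 0.0338), mRpL45 with quinapril (-0.29 ± 0.0509) and mannitol (-0.17 ± 0.0509), and mRpL36 with gemfibrozil (-0.25 ± 0.0443). The call of mRpL45 with mannitol was lost against the mean of the other compounds (-0.055, limma adjusted p = 0.313), with the 5′ minus 3′ signal as a covariate (adjusted p = 0.126) and with the bioB level as a block (adjusted p = 0.103). With moxifloxacin mRpS9 had 7.00 and 6.97, against 7.85, 7.75, 7.85 and 7.76 on normal food, and fell by 0.82 ± 0.0606 (limma adjusted p = 3.11e-16). Both moxifloxacin arrays were below every array on normal food.

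Because normal food had the lowest level, a second baseline was used for each compound, the mean of the other 6 compounds. By this measure olmesartan had 55 genes higher and 2 lower (18.7% and 16% of all probe sets), mannitol 46 and 5 (16.6% and 18.8%) and quinapril 38 and 12 (20.4% and 20.1%). Gemfibrozil had 18 higher and 7 lower (19.6% and 14.5%) and glucosamine 3 and 28 (13.8% and 14%). Levetiracetam had 8 higher and 50 lower (24.2% and 23.4%), and moxifloxacin 10 and 46 (20% and 21.6%). With the 5′ minus 3′ signal as a covariate, 39 genes rose and 4 fell against normal food with mannitol (15.6% and 19.8% of all probe sets), 35 and 6 with quinapril (15.9% and 18.2%) and 16 and 4 with glucosamine (12.8% and 13.8%). With levetiracetam 10 rose and 10 fell in that fit, against 13.2% and 14.2% of all probe sets, so neither count stood above the share of all probe sets by much.

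**Figure D5:**
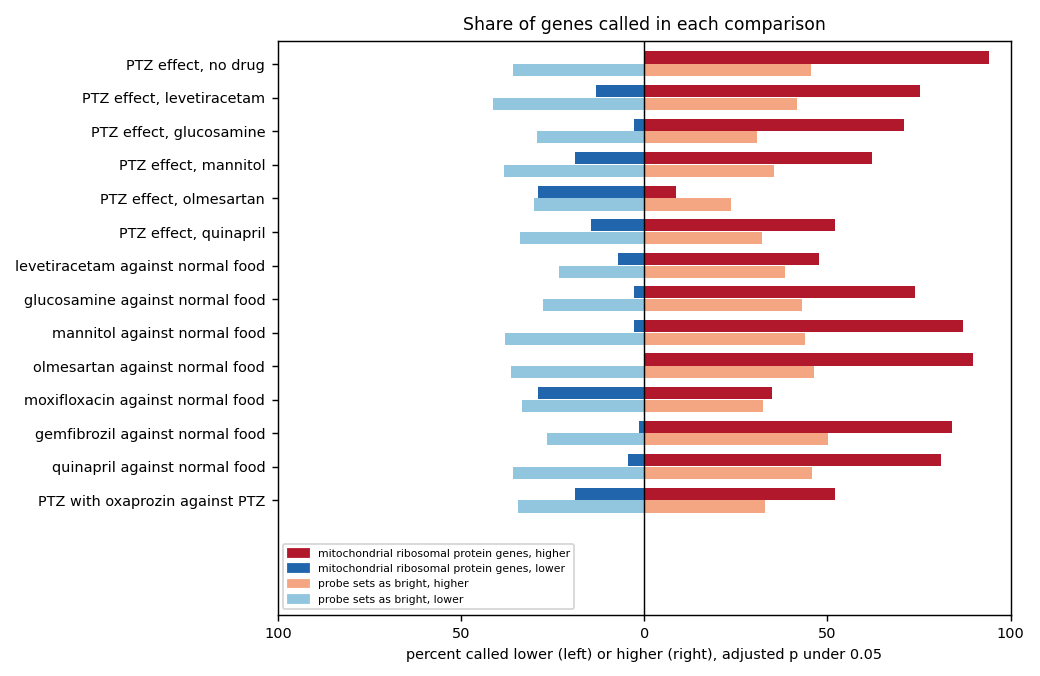
Percent of the 69 genes (dark bars) and of the 7386 probe sets at least as bright as the dimmest of them (pale bars) called higher (to the right, red) or lower (to the left, blue) in each of 14 comparisons. The dark red bar is longer than the pale one in every comparison but PTZ with olmesartan in the food; for moxifloxacin the 2 are nearly alike.

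PTZ with oxaprozin was compared with PTZ alone, since no group had oxaprozin alone. Of the 69 genes 36 rose and 13 fell, against 17.8% of all probe sets in either direction. The large subunit had a median change of 0.15 and the small subunit -0.03. mRpL48 had 6.61, 6.37, 6.46 and 6.70 with PTZ and oxaprozin, against 5.66, 5.57, 5.66 and 5.55 with PTZ alone, a rise of 0.92 ± 0.0841 (limma adjusted p = 3.49e-13). mRpL33 had 9.90, 9.93, 9.97 and 9.96 with PTZ and oxaprozin, against 10.43, 10.45, 10.45 and 10.47 with PTZ alone, and fell by 0.51 ± 0.0287 (adjusted p = 1.48e-20). Neither gene's groups overlapped. The dimmer probe sets had a median change of 0.42 and the brighter ones -0.03. With the 5′ minus 3′ signal, -4.73 with oxaprozin and -5.67 with PTZ alone, as a covariate, 12 genes rose and 18 fell, against 9.55% and 14.7% of all probe sets.

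Genes that work with the mitochondrial ribosome were looked at in the same comparisons, whose shares of all probe sets called are those given above for each background. tko had changes with PTZ of 0.83 on normal food, 0.68 with levetiracetam, 0.48 with glucosamine, 0.73 with mannitol, -0.00 with olmesartan and 0.23 with quinapril. It was called in all but the olmesartan background, and its mean over the 6 was 0.49 ± 0.115 (limma adjusted p = 0.0711), in the range of the highest of the 69. bonsai, which encodes the small subunit protein S15, was divided like mRpS30: its change was 0.84 with levetiracetam and -0.87 with mannitol.

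Of 11 mitochondrial translation factors, 7 rose and 0 fell with PTZ on normal food (23.9% and 26.4% of all probe sets), and 7 rose and 1 fell with levetiracetam (22.7% and 27.9%). Among the bright probe sets the shares were 45.5% and 35.8% on normal food, and 41.8% and 41.2% with levetiracetam. In the other backgrounds fewer factors were called: 1 rose and 2 fell with glucosamine, 3 and 2 with mannitol, 0 and 2 with olmesartan, and 4 and 2 with quinapril. Among them mEFTu1 and mEFTu2, which encode elongation factors that deliver aminoacyl-tRNA, changed by 0.70 and 0.54 on normal food. Of 14 mitochondrial aminoacyl-tRNA synthetases, which charge the tRNAs, 5 rose and 2 fell on normal food. The shares were 23.9% and 26.4% of all probe sets, and 45.5% and 35.8% of the bright ones. These synthetases averaged 4.96 to 5.23 per group, near 5.17, the lower limit of the bright probe sets, so many bright probe sets are brighter than they are. Their median over the 6 backgrounds was -0.04. Of 10 genes for maintenance and transcription of mitochondrial DNA, 6 rose and 0 fell on normal food, against the same shares, and their median over the 6 was 0.11. Among these, TFAM, the packaging factor of mitochondrial DNA, had a mean of 0.18 and mtTFB2, a transcription factor, of -0.20, and neither passed the test (adjusted p = 0.383 and 0.194).

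The products of the mitochondrial ribosome join nuclear-encoded subunits of the respiratory chain and the ATP synthase, of which 77 were measured. On normal food 46 of them rose with PTZ and 17 fell, against 45.5% and 35.8% of the bright probe sets. In the olmesartan background 8 rose and 27 fell, against 23.7% and 30.2% of the bright probe sets. Their median over the 6 backgrounds was 0.16, with 57 of 77 above 0. Of 41 genes for cytosolic ribosomal proteins, which make the proteins of the mitochondrial ribosome, 22 rose and 4 fell on normal food, against the same 45.5% and 35.8%. Their median over the 6 backgrounds was 0.12, and in the olmesartan background 19 rose and 4 fell, against 23.7% and 30.2%, where 6 of the 69 mitochondrial ribosomal protein genes rose and 20 fell.

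A second probe set was present for mRpS11 and mRpL47. Its mean change over the 6 backgrounds was 0.39 for mRpS11 and 0.36 for mRpL47, in the same direction as the brighter probe set of each gene. The 2 probe sets with several symbols name mRpS10 together with CG34316 and mRpL53 together with CG33155, and their signal cannot be given to one gene. The first had a mean change of 0.22 and the second of 0.68 over the 6 backgrounds.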

How the data were processed

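For each array, 250 ng of total head RNA was amplified from its 3′ end and hybridized to an Affymetrix Drosophila Genome 2.0 chip, according to the labels. The deposited values are on the log2 scale. The authors obtained them by RMA, which the submitters' processing notes list beside limma without giving versions or settings. RMA gives the probe intensities of all arrays the same distribution, and so can hide a change in which most transcripts take part. Of 18952 probe sets, 183 controls were left out. The deposited probe set values did not share a single distribution, since array medians ran from 3.68 to 3.85. Of the columns 0 belonged to other samples.

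All comparisons came from a single limma model (version 3.58.1 under R 4.3.3) of group means over the 58 arrays (43 residual and 3.88 prior degrees of freedom), with Benjamini-Hochberg adjustment within each comparison; the fit over backgrounds used the 6 differences of group means. Genes and chromosomes follow the array annotation and RefSeq (Release 6), in which all 69 genes were matched. The named genes are, per subunit, the 4 greatest and 2 lowest mean PTZ changes, any gene called over the 6 backgrounds, the 4 widest ranges, the greatest rise and fall of each comparison, the 3 highest and lowest signals, and tko and bonsai with examples from the other lists. The genes and lists were chosen with earlier results of these data known, and other genes named were chosen after their values were seen. Groups came from the labels. The code was tested on simulated data. Figures used Python 3.11.15 and matplotlib 3.10.9.

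Replicate numbers did not pair the arrays: correlations of deviations of same-numbered arrays ran from -0.127 to 0.138, with 2 of 24 over 0.1. Alternatives were a second quantile normalization, a variance trend with robust prior, averaging the probe sets of a gene, omitting the dimmest 40% of probe sets, a replicate block, only the groups compared, the 5′ minus 3′ signal as covariate, another reference, each array or background left out and, chosen after seeing the data, the bioB level as a block (levels separated at a bioB minus bioC of -3).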

Additional observations from a re-analysis of the deposited data

Results flagged for a closer look

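In groups of 4 arrays, 80 sets of values were checked for an array far from the other 3 by Dixon's test, of which chance flags about 1 in 20, and 3 stood out. The large subunit mean of PTZ with quinapril was 7.34 in replicate 1, against 7.21 to 7.23 in the others. mRpL42 with PTZ and levetiracetam was 7.84 in replicate 3, against 7.96 to 7.98, and mRpL3 with PTZ and olmesartan was 4.93 in replicate 4, against 4.84 to 4.85.

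For 22 named genes the PTZ change differed between backgrounds by limma's F test (adjusted over all probe sets). The span between the highest and the lowest of the 6 changes was widest for mRpL48 (2.02), mRpS2 (1.83), mRpS34 (1.74), mRpS6 (1.62), mRpL3 (1.57) and mRpS30 (1.56). It was 1.37 for mRpS9, 1.26 for mRpL28, 1.25 for mRpL9, 1.13 for mRpL35, 1.04 for mRpS14, 1.03 for mRpL51 and 1.02 for mRpS5. Smaller spans were those of mRpS26 (0.963), mRpL33 (0.932), mRpS21 (0.905), mRpL20 (0.832), mRpL36 (0.672), mRpL42 (0.562), mRpS22 (0.542), mRpS35 (0.528) and mRpL45 (0.469). Since 98.3% of equally bright probe sets also differed, these spans do not set the genes apart.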

How the results depend on the processing

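With the 5′ minus 3′ signal as a covariate, the genes that rose numbered 20 for PTZ with levetiracetam, 10 for levetiracetam, 16 for glucosamine, 39 for mannitol and 35 for quinapril against normal food, and 12 for PTZ with oxaprozin against PTZ, where 18 fell. Against the mean of the other compounds, 8 rose with levetiracetam (50 fell), 3 with glucosamine (28 fell), 10 with moxifloxacin (46 fell) and 18 with gemfibrozil (7 fell), so that for the first 3 of these falls came to outnumber rises. The cause of these shifts was not tested. Over the 6 backgrounds the count of 1 became 0 with a variance trend and robust prior and 3 without the dimmest probe sets, where fewer probe sets were tested. It ran from 0 to 6 when each background was left out, with 0 without glucosamine, mannitol or quinapril and 6 without olmesartan. Changes that turned round were those of mRpL28 with levetiracetam (-0.28) and mRpL35 with moxifloxacin (-0.051) against the other compounds. Among means over backgrounds that were not called, leaving out single backgrounds gave -0.194 to 0.121 for mRpL3 (0.0594 without mannitol, 0.0842 without olmesartan, 0.121 without quinapril), -0.237 to 0.0367 for mRpS9 (0.0212 without mannitol, 0.0367 without quinapril) and -0.00398 to 0.0899 for mRpL45, the low end without quinapril. The replicate block moved no count by more than 1 (48 for PTZ with glucosamine, 21 lower for PTZ with olmesartan) and changed no call of a named gene. Leaving out single arrays gave 64 to 65 rises for PTZ on normal food, 50 to 51 with levetiracetam, 47 to 49 with glucosamine, 42 to 43 with mannitol and 31 to 37 with quinapril. Precision is limited by signal as well as by the number of arrays: the SE was 0.121 for mRpS2, the dimmest gene, and 0.0287 for mRpL33, the brightest.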
